A study of Mus musculus with 2 samples.

Results

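The genes described here take glucose into the cell, break it down to pyruvate and lactate, feed pyruvate into mitochondria, divert sugar phosphate into the pentose phosphate route, or regulate the hypoxia-inducible factor HIF. They were given as a list of 37 gene names, drawn up with earlier results of these data known, and matched 38 of the 13549 rows of the table because *Aldoa* is listed under 2 gene identifiers. Counts below are over these 38 rows, each of which had at least 20 reads over both libraries.

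The reads came from 2 libraries of microglia, the resident macrophages of nervous tissue, sorted from mouse retina at postnatal day 5. All cells came from animals of the genotype CD11c-Cre-gfp;Rosa-TDTom, in which the promoter of CD11c drives Cre and GFP, and Cre switches on TdTomato for good. The Cd11c-active library held 4041 cells positive for both colours, and the Cd11c-lineage library held 5441 cells with TdTomato but no GFP. Both libraries came from 8 retinas, labelled as 4 female and 4 male, and the number of animals is not given in the sources used here. By design the first cells used the CD11c promoter when sorted and the second used it earlier, but TdTomato marks any cell type that ever made Cre. Each group was 1 library, so no difference below has a replicate check and no test was made.

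Glycolysis splits glucose into pyruvate in the cytosol and yields a little ATP without oxygen. Macrophages, including microglia, are known to lean on it when they engulf material or are stimulated, and to export the lactate that results. The pentose phosphate route makes NADPH and ribose, and HIF, stabilised when oxygen is low, switches on many glycolytic genes.

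Total reads were 12943998 in Cd11c-active and 13402625 in Cd11c-lineage. Levels are reads scaled to a common library size (CPM) after TMM scaling, which evens out differences in RNA composition, and ratios are Cd11c-active over Cd11c-lineage on the log2 scale. Wherever a pair of values is given, Cd11c-active comes first. TMM placed the median of all 13037 genes with at least 20 reads at 0.01, and scaling to library totals placed it 0.14 lower, which lowers every ratio by that amount. Intervals in parentheses are exact 95% intervals from the reads and cover counting error only. As a measure of spread in place of replicates, each gene was set beside the 500 genes nearest to it in total reads, called like genes. The middle 95% of their ratios is given as their range, and it widens steeply as reads become few. All 11 microglial marker genes, among them *Csf1r*, *Cx3cr1* and *P2ry12*, were abundant in both libraries, at a summed 17252 and 16534 CPM. *Itgax*, which encodes CD11c, was at 195 and 121 CPM, a ratio of 0.69 that lay within the range of its like genes (-0.91 to 0.98).

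Over all coverage classes 31 of the 38 rows had a ratio above 0, where 50.2% of all genes did. As a set, the rows took 1.09% of the Cd11c-active reads and 0.836% of the Cd11c-lineage reads. Their summed level was 11446 against 7977 CPM, a ratio of 0.52 (0.51 to 0.53). The transporters *Slc2a1* and *Slc16a3* were far higher in Cd11c-active, most enzymes of glycolysis and the pentose phosphate route were moderately higher, and the mitochondrial pyruvate carriers and *Egln3* were lower. At an absolute log2 ratio of at least 1, 5 rows were higher in Cd11c-active, where 23.3% of all 13037 genes were, and 2 were lower, where 21.6% were. These shares rest on poorly covered genes. Among the 29 member rows with at least 1000 reads, 2 were higher by that fold and 0 lower, against 5.43% and 4.14% of the 4619 genes so covered. In this well-covered class 27 of 29 member rows had a ratio above 0, where 48.6% of all such genes did, and the median was 0.48 against -0.02. Ratios above the range of like genes were found for 3 rows (*Slc2a1*, *Slc16a3* and *Gapdh*), where 2.02% of all genes lay above, and for 0 rows below it, where 1.79% did.

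**Figure D1:**
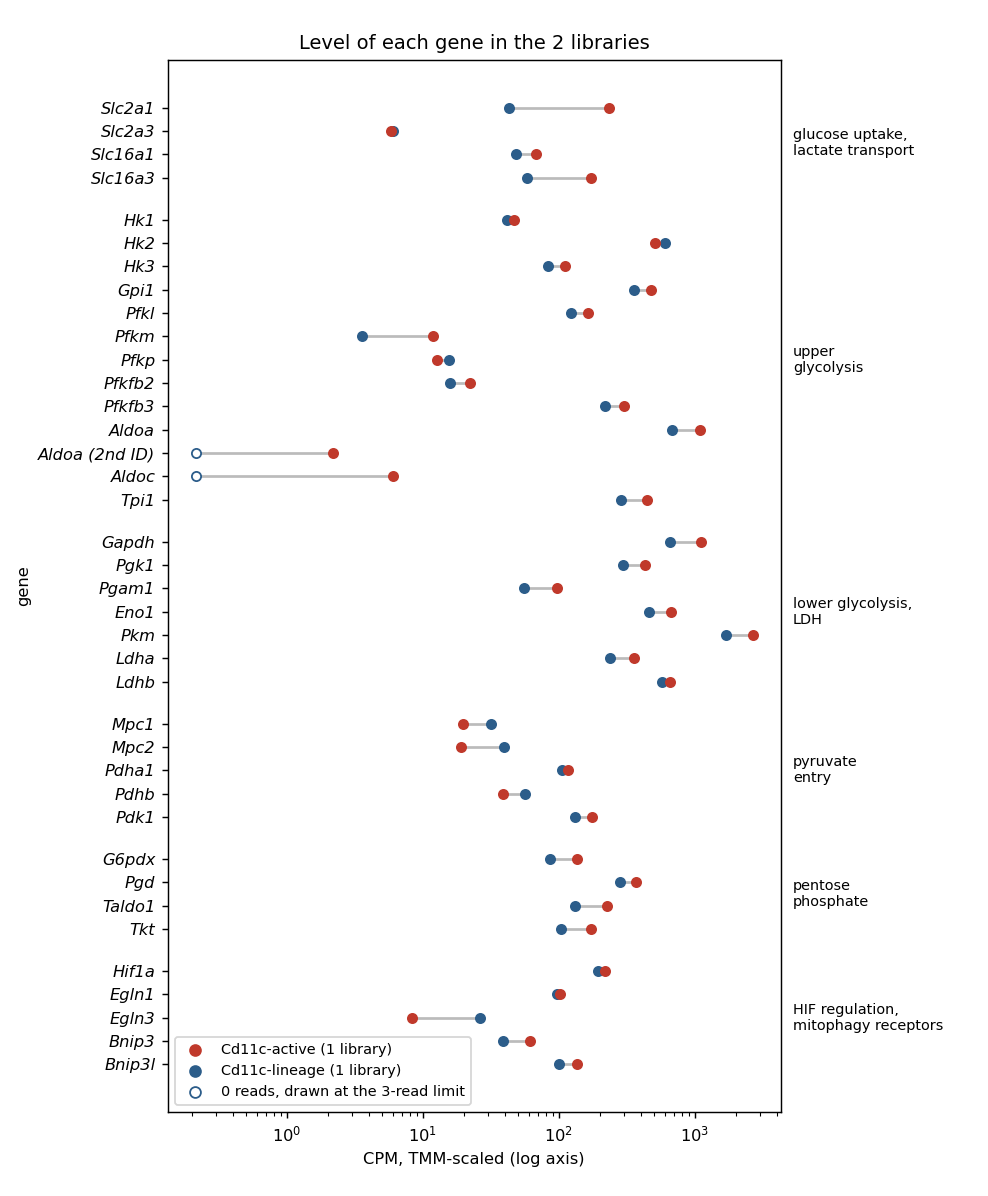
Level of each of the 38 rows in CPM on a log axis, with Cd11c-active in red and Cd11c-lineage in blue, ordered by pathway step. Single libraries are shown, so there is no error bar, and open circles mark 0 reads drawn at the 3-read limit. *Slc2a1* (235 against 42.9 CPM) and *Slc16a3* (173 against 58.3 CPM) show the widest gaps among well-covered genes.

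Of the 6 steps, glucose uptake and lactate transport had the largest ratio of summed reads, 1.63 (1.56 to 1.70), and 1.13 without *Slc2a1*. *Slc2a1* encodes GLUT1, the basal glucose transporter of most cells and of vessels that form a blood-tissue barrier. The Cd11c-active library held 2903 reads of it and the Cd11c-lineage library 603, which is 235 and 42.9 CPM, a 5.48-fold higher level in Cd11c-active. The ratio was 2.45 (2.33 to 2.58), outside the range of its like genes (-0.91 to 0.96) and at percentile 99.8 among them.

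*Slc16a3* encodes MCT4, a carrier typical of cells that release lactate. It had 2140 reads against 819 (173 and 58.3 CPM), again higher in Cd11c-active. The ratio of 1.57 (1.46 to 1.69) lay above the range of like genes (-0.99 to 0.97), at percentile 99.6.

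The other two transporters did not stand apart. *Slc16a1*, which encodes MCT1, a lactate carrier that works in both directions, had 833 and 679 reads and a ratio of 0.48 (0.33 to 0.63). *Slc2a3*, which encodes GLUT3, the high-affinity glucose transporter best known from neurons, had only 72 and 85 reads. Its ratio of -0.05 was not distinguishable from equal levels at this depth, and its like genes ranged from -8.20 to 8.57. Relatives outside the member list were mostly lower in Cd11c-active. *Slc2a5*, a fructose transporter, had 969 and 1617 reads (-0.55), *Slc2a9*, a urate transporter, 436 and 786 (-0.66), *Slc2a6* 192 and 276 (-0.34) and *Slc16a7*, which encodes the lactate carrier MCT2, 359 and 567 (-0.47), while *Slc2a8* had 290 and 316 (0.06). All 5 lay inside the range of their like genes.

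Markers of vessel cells moved with the transporters. All 15 endothelial genes of the list were higher in Cd11c-active, at a summed 933 against 73.8 CPM, and 10 of them, including *Flt1*, *Tek*, *Cldn5*, *Esam* and *Vwf*, had 0 reads in Cd11c-lineage. The 6 measured transporters and membrane proteins of barrier vessels summed to 288 against 46.5 CPM, of which *Slc7a5*, an amino acid transporter, gave 248 and 46.5 CPM. The one with the most reads, *Slc7a5*, an amino acid transporter, had a ratio of 2.41 beside the 2.45 of *Slc2a1*. Pericyte and smooth muscle genes summed to 67.1 against 2.21 CPM, with 6 of 7 at 0 in Cd11c-lineage, while the 7th, *Notch3*, had 0 and 31 reads. The part of vessel RNA in the ratios of *Slc2a1*, *Slc16a3* and the enzymes below was not tested. In such bulk samples, fewer cells of a type and less RNA per cell cannot be told apart.

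**Figure D2:**
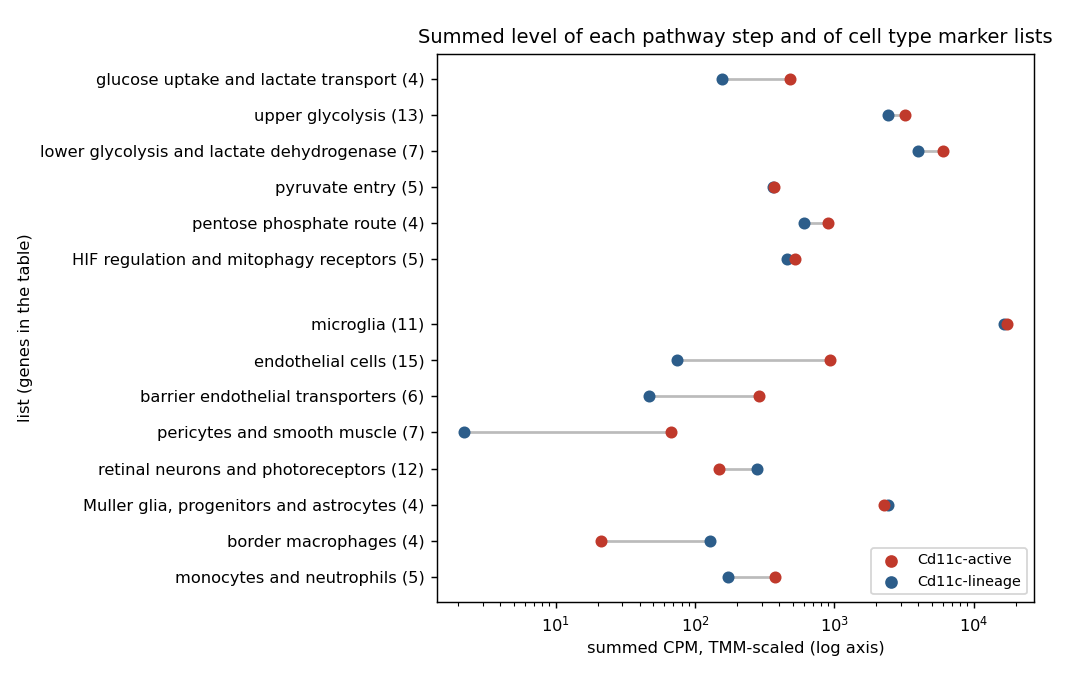
Summed level of the 6 pathway steps and of marker lists of other cell types, in CPM on a log axis, with the number of genes in the table in parentheses. Red points are Cd11c-active and blue points Cd11c-lineage, 1 library each. The microglial sum is close in both (17252 and 16534 CPM), while the endothelial sum (933 against 73.8 CPM) is far higher in Cd11c-active.

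Other non-microglial lists lay on both sides. Monocyte and neutrophil genes summed to 374 against 173 CPM, nearly all from *Fn1* (4586 and 2197 reads), whose ratio of 1.25 was above the range of its like genes, while *S100a8*, *S100a9* and *Plac8* were at 0 in Cd11c-active and *Ccr2* at 0 in Cd11c-lineage. Retinal neuron and photoreceptor genes summed to 149 against 280 CPM, with 10 of 12 measured genes lower in Cd11c-active and *Pdc* and *Pde6b* at 0 there. All 4 border macrophage genes in the table were lower in Cd11c-active (21.2 against 128 CPM), and *Cd163*, *Lyve1* and *F13a1* were at 0 there. Glial and progenitor genes summed to 2263 and 2416 CPM, nearly all from *Glul*, while *Slc1a3* had 73 and 642 reads and *Rlbp1* 94 and 0. Of the erythroid list only *Hbb-bt* was in the table, with 0 and 31 reads.

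Upper glycolysis, from hexokinase to triose phosphate, was moderately higher in Cd11c-active. The summed level was 3192 against 2420 CPM, a ratio of 0.40 (0.38 to 0.42), and 0.27 without *Aldoa*. Of the 13 rows, 11 had a ratio above 0, and none of the 8 with at least 1000 reads passed the fold threshold.

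*Hk2*, the inducible hexokinase, which traps glucose in the cell by phosphorylating it, went the other way. Its reads numbered 6289 in the Cd11c-active library against 8410 in the Cd11c-lineage library (509 and 599 CPM). This ratio of -0.23 (-0.28 to -0.19) was the lowest of the well-covered glycolytic enzymes, but it lay inside the range of like genes (-0.63 to 0.74). *Hk3*, a myeloid hexokinase, was slightly higher in Cd11c-active with 1381 and 1171 reads (0.42, 0.31 to 0.54). *Hk1*, the housekeeping form, had 579 and 583 reads, a ratio of 0.18 (0.01 to 0.35).

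The steps after hexokinase were higher by similar amounts. *Gpi1*, which turns glucose-6-phosphate into fructose-6-phosphate, had 5854 and 4989 reads (0.42, 0.36 to 0.47). *Pfkl*, the main phosphofructokinase here and the committed step of glycolysis, had 2038 and 1722 reads (0.43, 0.34 to 0.52). *Pfkfb3*, which makes the activator of phosphofructokinase, had 3714 and 3050 reads (0.47, 0.40 to 0.54). Its relative *Pfkfb2* had far fewer reads, with 273 and 222 reads (0.48, 0.22 to 0.75). The ratios of *Gpi1*, *Pfkl* and *Pfkfb3* stood at percentiles 81.8 to 91.4 of their like genes, and all 4 lay within the range.

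*Aldoa*, the aldolase that cuts the sugar into triose phosphates, had the most reads of this step. Its main identifier had 13422 reads against 9540 (1087 and 679 CPM), higher in Cd11c-active. The ratio was 0.68 (0.64 to 0.72), just inside the upper end of the range of like genes (-0.62 to 0.74). *Tpi1*, triose phosphate isomerase, had 5452 and 4045 reads (0.62, 0.56 to 0.68).

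The remaining 4 rows of this step were thinly covered, and their like genes spread widely. *Pfkm*, the muscle phosphofructokinase, had 147 and 50 reads, a ratio of 1.73 (1.27 to 2.24), while its like genes ranged from -8.54 to 8.89. *Aldoc*, the aldolase of brain and glia, had 74 reads in the Cd11c-active library and 0 in the other. Set against the limit of 3 reads that a count of 0 allows, it was at least 28.1-fold higher in Cd11c-active, but 71.0% of its like genes also had 0 reads in one library. The second *Aldoa* identifier had 27 and 0 reads, at least 10.2-fold higher, and 88.8% of its like genes had 0 reads in one library; whether its reads belong to the main gene was not tested. *Pfkp*, the platelet phosphofructokinase, had 158 and 217 reads (-0.27, -0.58 to 0.03). Together with *Slc2a3*, the *Pfkm*, *Aldoc* and second *Aldoa* rows were the 4 member rows with under 200 reads. Of these, 3 were higher by the fold threshold, where 43.3% of all genes in that class were, and none lay outside its range.

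In lower glycolysis, from triose phosphate to lactate, all 7 genes were higher in Cd11c-active, with ratios from 0.19 to 0.80, and none passed the fold threshold. The summed level was 5979 against 3975 CPM, a ratio of 0.59 (0.57 to 0.60). *Pkm*, pyruvate kinase, the last step to pyruvate, had the most reads of all members, 32889 and 23831, which is 2664 and 1696 CPM. Per kilobase of its longest transcript it was also the highest member, and it ranked 27th of the measured genes in Cd11c-active and 34th in Cd11c-lineage. Its ratio of 0.65 (0.63 to 0.68) was inside the range of like genes (-0.63 to 0.79), at percentile 95.4.

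*Gapdh*, which oxidises triose phosphate and is often taken as a reference gene, had 13667 reads against 9239 (1107 and 658 CPM). The ratio of 0.75 (0.71 to 0.79) was just above the range of like genes (-0.62 to 0.72), at percentile 97.6. *Pgk1*, the first ATP-yielding enzyme, had 5341 and 4156 reads (0.55, 0.49 to 0.61). *Eno1*, enolase, had 8239 and 6468 reads (0.54, 0.49 to 0.58). *Pgam1*, phosphoglycerate mutase, had 1191 and 776 reads (0.80, 0.67 to 0.94), the largest ratio of the step in a less well covered gene. Corrected for transcript length and GC content, *Gapdh* had the largest ratio, 0.67 against 0.58 for *Pgam1*. Several of these genes have near-identical pseudogene copies in the mouse genome, so their reads are uncertain to the extent that the counting shared or dropped them.

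The lactate dehydrogenases separated. *Ldha*, the form that favours lactate, had 4438 and 3356 reads (0.59, 0.52 to 0.65). *Ldhb*, the form that favours pyruvate, had 8061 and 8023 reads, a ratio of 0.19 (0.15 to 0.24) that turned to -0.12 once each gene's ratio was corrected for transcript length and GC content.

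Over upper and lower glycolysis and the pentose phosphate route, 19 genes had at least 1000 reads. Of these, 18 had a ratio above 0, and 16 lay between 0.3 and 0.9, with a median of 0.55. The median was 0.41 under library totals, where all genes moved down by 0.14, and 0.38 after the length and GC correction. At or above percentile 90 of their like genes were 12 of the 19, where 10.2% of all 4619 genes with at least 1000 reads were. These genes are not independent of each other, and the count describes the 2 libraries only.

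**Figure D3:**
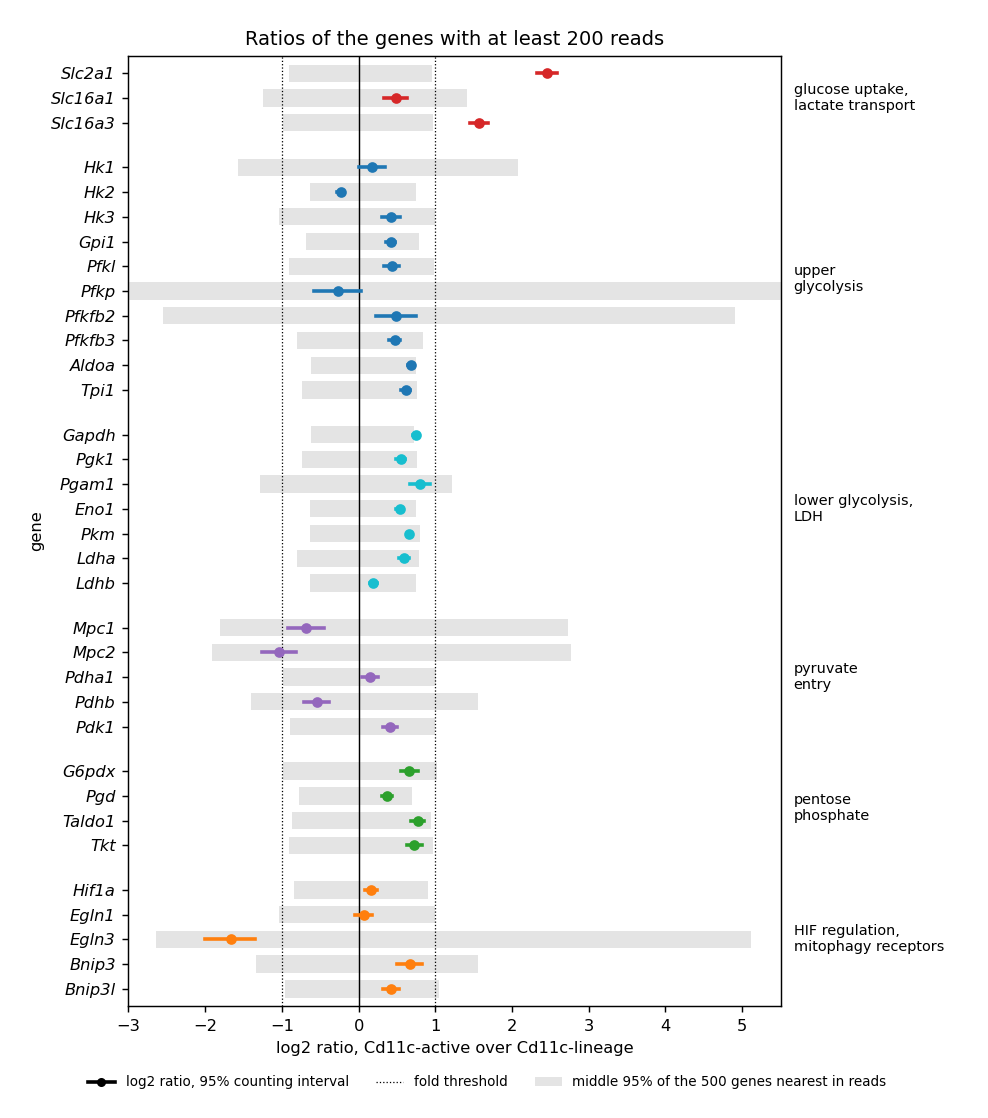
Log2 ratio of Cd11c-active over Cd11c-lineage for the 34 rows with at least 200 reads; points carry 95% counting intervals, grey bars are the middle 95% of the 500 genes nearest in reads, and dotted lines mark the fold threshold. *Slc2a1* (2.45) and *Slc16a3* (1.57) lie clear of their grey bars, *Gapdh* (0.75) just beyond its own, and the bar of *Pfkp* runs past both ends of the axis.

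**Figure D4:**
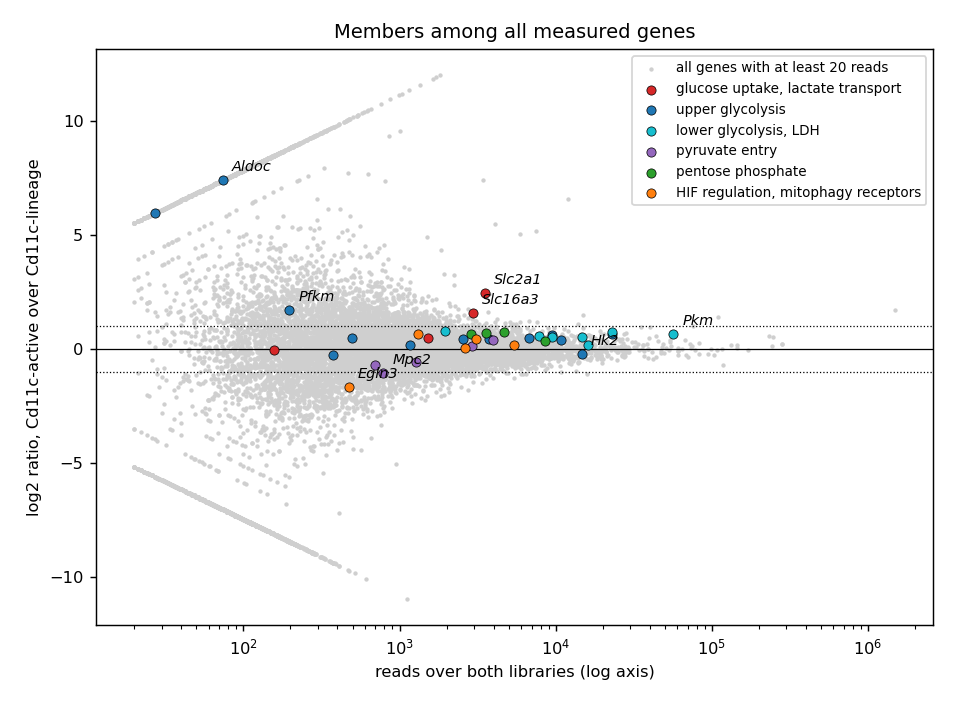
Log2 ratio against reads over both libraries (log axis) for all 13037 genes with at least 20 reads in grey and the members in the colour of their step; slanted edges are genes with 0 reads in one library and dotted lines mark the fold threshold. Of the 29 member rows with at least 1000 reads, 27 lie above 0, with a median of 0.48, *Pdhb* (-0.55) lowest and *Slc2a1* (2.45) highest, and *Aldoc* sits on the edge of genes with 0 reads in Cd11c-lineage.

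The pyruvate entry step did not follow glycolysis. Its summed level was 369 and 364 CPM, a ratio of 0.02 (-0.04 to 0.08), which turned to -0.12 under library totals and to -0.26 without *Pdk1*. The 2 subunits of the mitochondrial pyruvate carrier, through which pyruvate enters mitochondria, were both lower in Cd11c-active. *Mpc1* had 245 and 448 reads (-0.68, -0.91 to -0.46) and *Mpc2* had 237 and 552 reads (-1.03, -1.26 to -0.81). *Mpc2* was 1 of the 2 rows past the fold threshold downward. Both lay inside the range of like genes, which ran from -1.80 to 2.74 for *Mpc1* and from -1.91 to 2.77 for *Mpc2*. Corrected for length and GC content, the ratio was -1.03 for *Mpc1*, past the fold threshold, and -0.93 for *Mpc2*, no longer past it.

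Pyruvate dehydrogenase, which turns pyruvate into acetyl-CoA, was split between its subunits. *Pdha1*, the catalytic alpha subunit, had 1442 and 1479 reads (0.15, 0.04 to 0.26), and *Pdhb*, the beta subunit, had 479 and 797 reads (-0.55, -0.71 to -0.38). *Pdk1*, the kinase that switches the complex off and a known HIF target, had the most reads of the step, 2151 and 1842 (0.41, 0.32 to 0.50). None of these was outside the range of like genes.

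All 4 genes of the pentose phosphate route were higher in Cd11c-active. Their summed level was 899 against 605 CPM, a ratio of 0.57 (0.53 to 0.61), and 0.73 without *Pgd*. *Pgd*, the second NADPH-yielding enzyme and the one with the most reads, had 4525 and 3977 reads (0.37, 0.31 to 0.43). *G6pdx*, the entry enzyme, had 1677 and 1206 reads (0.66, 0.55 to 0.77). The enzymes of the sugar-shuffling branch had the larger ratios, with 2790 and 1859 reads for *Taldo1* (0.77, 0.69 to 0.86) and 2113 and 1456 reads for *Tkt* (0.72, 0.63 to 0.82). Their percentiles among like genes were 95.6 and 94.4, inside the range, and no gene of the route passed the fold threshold. The interval of *G6pdx* overlapped those of *Taldo1* and *Tkt*. After the length and GC correction the order changed, with *Tkt* at 0.61, *G6pdx* at 0.53 and *Taldo1* at 0.47.

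HIF regulators had small ratios except for *Egln3*. *Hif1a*, the oxygen-controlled subunit, had the most reads of this group, 2689 against 2735 (218 and 195 CPM). The ratio was 0.16 (0.08 to 0.24). *Egln1*, the main prolyl hydroxylase that marks HIF for destruction, had 1255 and 1364 reads; its ratio of 0.07 (-0.05 to 0.18) included 0 and turned to -0.07 under library totals and -0.08 after the length and GC correction. *Egln3*, a hydroxylase that HIF itself induces, had 102 reads against 370 (8.26 and 26.3 CPM) and was higher in Cd11c-lineage. The ratio of -1.67 (-2.003 to -1.352) was past the fold threshold but inside the range of like genes (-2.64 to 5.12), at percentile 8.2. Of the 5 member rows with 200 to under 1000 reads, 2 were lower by that fold, *Egln3* and *Mpc2*, where 20.8% of all genes in that class were.

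The mitophagy receptors, outer mitochondrial membrane proteins induced by HIF, were both higher in Cd11c-active. *Bnip3* had 760 and 545 reads (0.67, 0.51 to 0.83), and *Bnip3l*, also needed for mitochondrial clearance in red cells, had 1675 and 1419 (0.43, 0.32 to 0.53). Both lay within the range of their like genes.

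Shares of isoenzymes do not depend on scaling between the libraries, and were taken first over the listed members of each family only. In the pair of *Slc2a1* and *Slc2a3*, *Slc2a1* took 97.6% of reads in Cd11c-active (Wilson 95% interval 97.0 to 98.1) and 87.6% in Cd11c-lineage (85.0 to 89.9). Per kilobase of longest transcript that share was 98.7% and 93.2%. *Slc16a3* took 72.0% (70.3 to 73.6) and 54.7% (52.1 to 57.2) of the reads of *Slc16a1* and *Slc16a3*, and 64.2% and 39.7% with *Slc16a7* counted as well. *Hk2* was the leading hexokinase in both libraries, at 76.2% (75.3 to 77.1) and 82.7% (82.0 to 83.5), and per kilobase at 66.9% and 75.3%. *Hk3* made up 16.7% and 11.5% of hexokinase reads. *Ldha* made up 35.5% (34.7 to 36.4) and 29.5% (28.7 to 30.3) of lactate dehydrogenase reads. Per kilobase it made up 28.3% and 23.1%, so *Ldhb* was the major form in both. *Pfkl* held 87.0% and 86.6% of phosphofructokinase reads, with overlapping intervals, and per kilobase 88.7% and 91.6%, while *Pfkm* held 6.27% (5.36 to 7.33) and 2.51% (1.91 to 3.30). *Pfkp* held 6.74% (5.80 to 7.83) and 10.9% (9.61 to 12.4) of the same reads, so the minor forms separated in opposite directions. *Pfkfb3* held 93.2% of the reads of *Pfkfb2* and *Pfkfb3* in both libraries, and 85.3% (84.3 to 86.4) and 83.8% (82.6 to 85.0) with *Pfkfb4* counted as well. With the 4 other measured SLC2A transporters counted in, *Slc2a1* took 59.7% (58.3 to 61.1) and 16.4% (15.2 to 17.6). These wider families were chosen after seeing the data. Counting intervals leave out the spread between libraries, which was not measured.

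**Figure D5:**
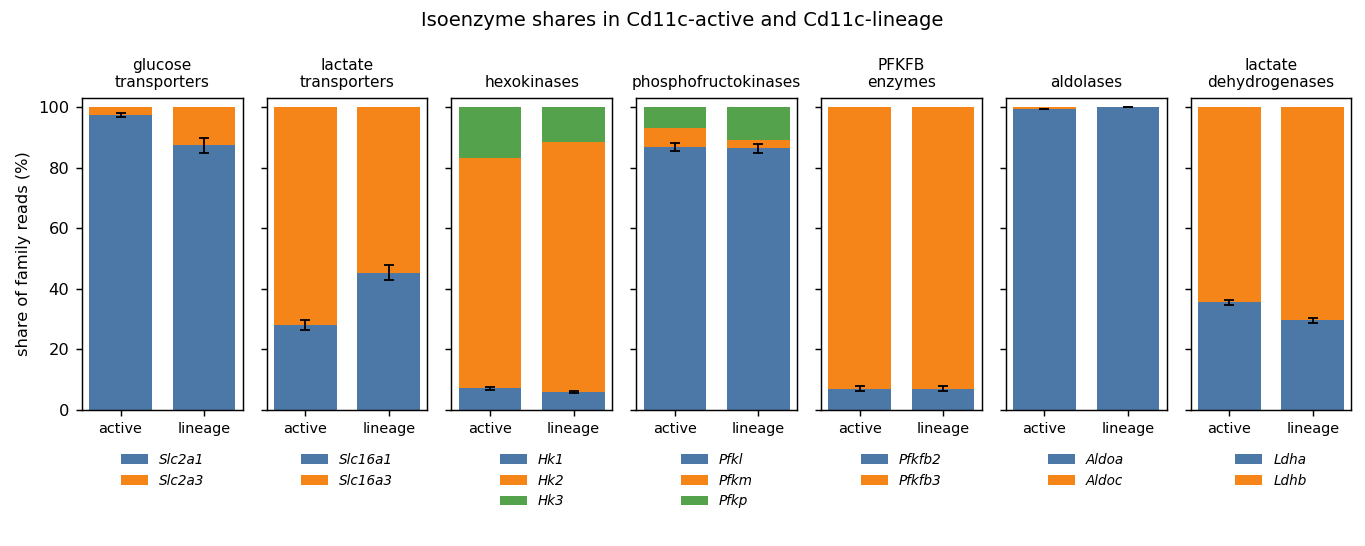
Share of reads (%) taken by each isoenzyme over the listed members of 7 families (other measured relatives are left out), with Cd11c-active on the left and Cd11c-lineage on the right of each panel; black bars are Wilson 95% intervals on the lowest segment and cover counting error only. *Slc16a3* takes 72.0% and 54.7% of the reads of *Slc16a1* and *Slc16a3*, and *Pfkfb3* 93.2% of those of *Pfkfb2* and *Pfkfb3* in both.

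HIF binds the core letters ACGTG or GCGTG, so the 250 bases before the transcription start of each gene were searched for both on either strand in RefSeq promoters of build GRCm38.p6. A CACGTG counts on each strand. Promoters were matched for 35 of the 37 genes (52 promoters), and 33 of the 35 genes had a match in at least 1 promoter, where 41.5% of the 27025 genes with a promoter did. Per promoter, ACGTG occurred in 42.3% of the members' and 16.6% of all 32851, and GCGTG in 57.7% and 28.2%. The members' promoters were also richer in G and C, with a median of 61.4% against 52.4%, and the shares were not matched for base composition. These matches describe letters and show no binding. The promoters shown are those of the transporters that stood apart (*Slc2a1* and *Slc16a3*), of *Ldha* and *Pgk1* from the moderately higher enzymes, of *Egln3*, which was lower, and of *Tpi1*, which was higher with 0 matches. They run 5′ to 3′ in the direction of the gene, capitals mark the matches on either strand, and for *Ldha* the upstream one of 2 promoters is shown.
Slc2a1: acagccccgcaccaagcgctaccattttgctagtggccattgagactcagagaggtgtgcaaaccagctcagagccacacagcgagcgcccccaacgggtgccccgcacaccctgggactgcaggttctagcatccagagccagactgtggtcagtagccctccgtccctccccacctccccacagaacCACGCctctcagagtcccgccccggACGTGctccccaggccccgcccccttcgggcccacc
Slc16a3: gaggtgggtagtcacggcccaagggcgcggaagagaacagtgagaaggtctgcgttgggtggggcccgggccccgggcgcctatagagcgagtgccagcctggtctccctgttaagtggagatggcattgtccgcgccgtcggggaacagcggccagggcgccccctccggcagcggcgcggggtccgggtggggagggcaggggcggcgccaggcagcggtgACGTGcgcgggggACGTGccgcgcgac
Ldha: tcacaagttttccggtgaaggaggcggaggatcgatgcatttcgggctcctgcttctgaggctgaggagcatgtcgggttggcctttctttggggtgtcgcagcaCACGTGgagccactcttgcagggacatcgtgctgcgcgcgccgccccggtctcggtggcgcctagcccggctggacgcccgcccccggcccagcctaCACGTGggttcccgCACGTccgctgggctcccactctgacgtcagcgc
Pgk1: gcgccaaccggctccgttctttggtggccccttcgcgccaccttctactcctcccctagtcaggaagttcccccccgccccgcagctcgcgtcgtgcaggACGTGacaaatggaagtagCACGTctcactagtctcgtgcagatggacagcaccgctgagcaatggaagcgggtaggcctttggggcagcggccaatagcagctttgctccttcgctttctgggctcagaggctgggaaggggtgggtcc
Egln3: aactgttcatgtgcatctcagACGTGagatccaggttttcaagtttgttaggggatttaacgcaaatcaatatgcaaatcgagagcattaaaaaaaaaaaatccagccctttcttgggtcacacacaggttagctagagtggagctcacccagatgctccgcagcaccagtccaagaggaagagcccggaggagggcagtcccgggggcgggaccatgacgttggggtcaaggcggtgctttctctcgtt
Tpi1: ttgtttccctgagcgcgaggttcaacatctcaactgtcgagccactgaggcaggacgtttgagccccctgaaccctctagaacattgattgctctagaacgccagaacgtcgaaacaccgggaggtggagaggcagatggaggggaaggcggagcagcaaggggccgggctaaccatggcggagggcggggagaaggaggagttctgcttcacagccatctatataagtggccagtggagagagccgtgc

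In that build these stretches are chr4:119108495-119108744 (plus strand) for *Slc2a1*, chr11:120948817-120949066 (plus strand) for *Slc16a3*, chr7:46845554-46845803 (plus strand) for *Ldha* and chrX:106186850-106187099 (plus strand) for *Pgk1*. Those of *Egln3* and *Tpi1* are chr12:54203875-54204124 (minus strand) and chr6:124814159-124814408 (minus strand). *Ldha* had 5 matches, a count that 1.01% of all promoters reached or passed, and its ratio was 0.59. *Egln3* carried 1 match at a ratio of -1.67, *Slc2a1* 2 at 2.45, and *Tpi1* 0 at 0.62. These promoters were picked for their matches and ratios, so no relation of matches to ratios can be read from them.

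The rest of the pathway was described from lists of 101 other genes, of which 73 were measured. Their median ratio was -0.05, against 0.48 for the members and 0.01 for all genes. Among the 24 with at least 1000 reads, the median was 0.16, against 0.48 for the members so covered and -0.02 for all such genes. Of these 24, 13 had a ratio above 0, 5 were higher by the fold threshold and 0 lower, where 5.43% and 4.14% of all such genes were. Other glycolysis genes were mixed, with 8 of 19 above 0, 3 higher and 6 lower by the fold, where 23.3% and 21.6% of all genes were. *Bsg*, which encodes the partner protein that carries MCT1 and MCT4 to the cell surface, had 3284 and 2004 reads. Its ratio of 0.90, and 0.54 after the length and GC correction, was before that correction just above the range of like genes (-0.82 to 0.84). *Adpgk*, an ADP-dependent glucokinase, had 415 and 82 reads (2.52). *Tigar*, a phosphatase that slows glycolysis in favour of the pentose phosphate route, had 23 and 360 reads (-3.75), and *Bpgm*, which makes bisphosphoglycerate, had 146 and 426 (-1.36). These 3 lay inside the range of like genes.

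Other pyruvate entry genes had 3 of 10 ratios above 0, with 1 higher and 3 lower by the fold, where 23.3% and 21.6% of all genes were. *Pdpr*, a regulator of pyruvate dehydrogenase phosphatase, had 838 and 432 reads (1.14), and *Pdk2*, a second inhibitory kinase, had 5 and 205 (-5.04). Both lay inside the range of their like genes, which ran from -1.40 to 1.56 for *Pdpr* and from -8.59 to 8.93 for *Pdk2*. In the pentose phosphate list, 4 of 7 were above 0, with 2 higher and 2 lower by the fold (23.3% and 21.6% of all genes). *Pgls*, the lactonase between *G6pdx* and *Pgd*, had 507 reads in the Cd11c-active library and 0 in the other, at least 192-fold higher and above its range. *Prps1*, which uses ribose phosphate for nucleotides, had 12 and 272 reads (-4.26), within its range.

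Among other HIF regulators 7 of 14 ratios were above 0, with 3 higher and 1 lower by the fold (23.3% and 21.6% of all genes). *Epas1*, which encodes the HIF subunit abundant in endothelium, had 1038 reads in the Cd11c-active library and 0 in the other, at least 394-fold higher, beside the 10 endothelial genes at 0 in the same library, and the part of vessel RNA in this was not tested. *Cul2*, part of the ligase that removes HIF, had 379 and 131 reads (1.72), inside the range of its like genes. Other HIF targets had a median of 0.28, with 14 of 24 above 0, 11 higher and 4 lower by the fold, beside the 23.3% and 21.6% of all genes. *Hmox1*, heme oxygenase, had 10718 and 4272 reads (1.51), *Mxi1*, a MYC antagonist, 1613 and 495 (1.89), and *Mif*, a cytokine, 1231 and 280 (2.32, and 1.603 after the length and GC correction). These 3 were above the range of their like genes. The collagen hydroxylase *P4ha2* had 276 and 0 reads, at least 105-fold higher, a bound that lies inside the range of its like genes. *Ndrg1*, a stress-response gene, had 146 and 698 reads (-2.07), below its range, and *Vegfa*, the vessel growth factor, had 108 and 365 (-1.57), inside it. Targets of HIF were found on both sides.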

How the data were processed

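RNA from 2 sorted cell populations, 1 library each, was sequenced after ribosomal RNA depletion with a stranded kit, per the labels' protocols. The authors deposited raw counts per gene, per the file headers, with log2 values (fold change and mean CPM) that were not used. The submitters' processing notes name cutadapt 3.5, STAR 2.7.9a, featureCounts 1.6.3, edgeR 4.0.16 and the build GRCm39. Annotation, use of strand in counting and treatment of duplicate reads are not given in the sources used here. No column of unmapped samples was present (0).

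Library sizes were scaled by TMM in edgeR 4.0.16 (factors 0.954 and 1.05) in R 4.3.3. The log2 ratio used reads plus 0.5 over the scaled size, with exact Clopper-Pearson intervals. The limit for a gene with 0 reads was set at 3 reads, equal to 0.243 CPM (Cd11c-active) and 0.214 CPM (Cd11c-lineage). Reads carry no molecular identifiers, so intervals and limits cover counting error only. With 1 library per group no test of edgeR or DESeq2 could be fitted. Length and GC content came from the longest transcript in GENCODE M21 (GRCm38), which matched 99.6% of genes by identifier, and no coordinates were carried between builds. The length and GC correction was a quadratic fit to genes with at least 1000 reads.

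Members and lists were chosen with earlier results of these data known. A single marker gene was left out of its list's counts and sum and is not reported here. Reads were given for members with at least 1000 reads and the fold threshold passed, outside the range of like genes, with 0 reads in a library, most abundant in a step or in an isoenzyme family, and for the remaining members as context. Other pathway genes were named from those with at least 200 reads and the fold threshold passed. *Bsg* and the transporters *Slc2a5*, *Slc2a6*, *Slc2a8*, *Slc2a9* and *Slc16a7* fall outside that rule and were named after their values were seen. Alternatives were library totals, DESeq2 1.42.0 size factors, TMM without ribosomal, mitochondrial, 7SK and 7SL genes, the length and GC correction, a prior of 5 reads, other read minimums, a lower fold and 200 like genes. The scripts were tested on simulated data. Other steps ran in Python 3.11.15 (scipy 1.17.1, numpy 2.4.6, statsmodels 0.14.6, pandas 2.3.3, matplotlib 3.10.9).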

Additional observations from a re-analysis of the deposited data

How the results depend on the processing

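No paired analysis was possible because each group is 1 library, so no library could be left out either. The counts of members past the fold threshold were 5 higher and 2 lower under library totals, DESeq2 size factors, TMM without ribosomal, mitochondrial, 7SK and 7SL genes, the length and GC correction, a prior of 5 reads and no minimum of reads, as in the main analysis, though under the length and GC correction *Mpc1* took the place of *Mpc2*. With a minimum of 1000 reads they were 2 and 0, where 5.43% and 4.14% of all such genes were. At a log2 threshold of 0.5 they were 17 and 4. The share of all genes past 0.5 was not taken, so those counts have no background to be read against. The counts outside the range of like genes stayed at 3 and 0 under every alternative run, 200 like genes included.

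Under library totals the summed reads gave 1.49 for uptake and lactate transport, 0.26 for upper and 0.45 for lower glycolysis, 0.44 for the pentose phosphate route and 0.061 for HIF regulation, and pyruvate entry reversed from 0.02 to -0.12. Without the most abundant gene the sums were 1.13 for uptake (without *Slc2a1*), 0.27 for upper (without *Aldoa*) and 0.54 for lower glycolysis (without *Pkm*), 0.73 for the pentose phosphate route (without *Pgd*) and -0.26, reversed, for pyruvate entry (without *Pdk1*). By construction, leaving out a gene moves a summed ratio where the ratio of that gene differs from the rest of its step.

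Of single genes, *Slc2a3* reversed to 0.0891, *Ldhb* to -0.12 and *Egln1* to -0.0768 after the length and GC correction, and the cause was not tested. Library totals lowered every ratio by the same amount, which took *Egln1* to -0.0699. The length and GC correction also lowered larger ratios, among them the main *Aldoa* identifier from 0.68 to 0.34, *Eno1* from 0.54 to 0.25 and *Pkm* from 0.65 to 0.39. It raised others, among them *Pdk1* from 0.41 to 0.53. Per kilobase, the shares in Cd11c-active and Cd11c-lineage were 98.7% and 93.2% for *Slc2a1*, 66.9% and 75.3% for *Hk2*, 88.7% and 91.6% for *Pfkl*, 28.3% and 23.1% for *Ldha*, and 99.7% for *Aldoa* in Cd11c-active. With measured relatives counted in the family, an alternative chosen after seeing the data, the shares were 59.7% and 16.4% for *Slc2a1*, 64.2% and 39.7% for *Slc16a3*, 85.3% and 83.8% for *Pfkfb3*, and 81.5% for *Hk2* in Cd11c-lineage. Of genes with under 200 reads, 63.0% had 0 reads in one library, and the cause was not tested.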
